A study of Mus musculus with 4 samples.

Results

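Basal keratinocytes, the stem and progenitor layer of the epidermis that rests on the basement membrane, made up 320 of 13739 retained cells in single-cell RNA sequencing of whole mouse noses at embryonic day 14.5. They were chosen by their own counts. A member had at least 1 UMI (a tag that marks 1 captured molecule) of Trp63 and at least 5 over Krt5, Krt14 and Krt15, fewer than 5 over the suprabasal genes Krt1, Krt10 and Krtdap, and none of the periderm genes Krt7 and Upk1b. Cells were retained when 500 genes or more were detected and mitochondrial UMIs were no more than 10%. Control 1 gave 97 members of 4075 retained cells, control 2 gave 23 of 2474, mutant 1 gave 95 of 2995, and mutant 2 gave 105 of 4195. Values below follow that order.

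The 2 mutant libraries carried the transgene Tg(Sox10-cre)1Wdr with floxed Yap and Taz, and the series design gives 1 wild-type Yap allele and 2 floxed Taz alleles. The 2 control libraries are labelled C57Bl/6J, whereas the series design gives floxed Yap and Taz without Cre, and which is right was not settled. Cre is driven by Sox10, a gene of the neural crest, and the transgene is present in every cell of a mutant, whether or not Cre is made there. The labels count 2 noses a group without tying a nose to a library, so p-values measure the spread between these libraries. Libraries were made by 2 providers that the labels do not assign, so a batch could not be tested.

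Epidermis at this stage is a basal layer beneath newly forming suprabasal layers and a transient outer periderm. Basal cells divide, hold to the basement membrane through hemidesmosomes and form the placodes of hairs and whiskers, and the transcription factor p63 (Trp63) maintains them. YAP and TAZ (Wwtr1), the coactivators restrained by the Hippo kinases, are known in basal keratinocytes as promoters of proliferation. Keratinocytes derive from surface ectoderm, and the nasal cavity lining has Trp63 and Krt5 positive basal cells of its own.

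Depth in the members was uneven. Their summed counts were 1393372, 220478, 1277941 and 892388 UMIs, and the median member held 11767, 8784, 11229 and 7442 UMIs. Control 2 therefore contributed the fewest cells and counts. Between 4 and 8 cell barcodes were shared by any pair of libraries, and no shared barcode was a member in both. Levels below are in CPM, a gene's UMIs per 1000000 UMIs summed over the members of a library.

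The label was checked against Col17a1, the hemidesmosomal collagen and the one named marker that the rule did not use. Col17a1 stood at 163, 141, 168 and 147 CPM in members against 7.29 to 11.7 CPM in all other retained cells. Members therefore carried the marker in every library, as a description with no test. Suprabasal keratinocytes were 81, 32, 55 and 68 cells with at least 5 UMIs over Krt1, Krt10 and Krtdap. They also had at least 5 over Krt5, Krt14 and Krt15 and none of Krt7 and Upk1b, with no condition on Trp63. These cells held 128 to 134 CPM of Col17a1. The marker does not separate the 2 layers at this stage.

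Of the genes that chose the members, Trp63 was at 384, 286, 335 and 328 CPM and Krt14, a keratin of the basal filament network, at 1097, 1297, 1218 and 1378 CPM. Krt5, the partner of Krt14, was at 711, 826, 936 and 995 CPM, and Krt15, a keratin of basal and follicle cells, at 858, 1302, 848 and 1060 CPM. The median member held 31, 29, 33 and 23 UMIs over the 3 keratins. Close to the limits, 38 members had 5 to 9 keratin UMIs, while 39 cells that met the other conditions had 1 to 4 and 129 had none. With 1 Trp63 UMI, 73 members were just inside, and 89 cells with none were just outside. Between 1 and 4 UMIs of the suprabasal genes were present in 203 members, and 49 cells fell out with 5 to 9.

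Attachment genes that the rule did not use were present in members of every library. The integrin chain Itga6 was at 130, 113, 158 and 156 CPM against 46.3 to 104 CPM in suprabasal cells, so that members were above the layer in each library. Its partner Itgb4, which makes the hemidesmosomal integrin with it, was at 63.2, 90.7, 79.8 and 84.0 CPM. Pdgfa, a growth factor that epidermis sends to the dermis, was at 354, 440, 286 and 378 CPM in members and at 124 to 190 CPM in suprabasal cells. The junction genes Perp and Dsp were lower in members than in the layer above in every library. Perp, a desmosomal membrane protein, was at 279, 345, 265 and 310 CPM in members and at 843 to 1280 CPM in suprabasal cells, and Dsp, the desmosomal plaque protein, at 413, 354, 317 and 288 CPM against 665 to 881 CPM. Of 12 listed genes of later differentiation 5, Ivl, Dsc1, Cnfn, Krt77 and Krt78, had no UMI in any library, which in control 2 allows up to 3 of 220478. The whole list summed to 44.5, 54.4, 70.4 and 60.5 CPM in members against 71.8 to 96.1 CPM in other cells. Of the genes detected, Calml3, a calmodulin-like protein of stratified epithelia, had a UMI in 8.25%, 13.0%, 26.3% and 10.5% of members and Sbsn, suprabasin, in 13.4%, 8.70%, 14.7% and 4.76%.

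**Figure D1:**
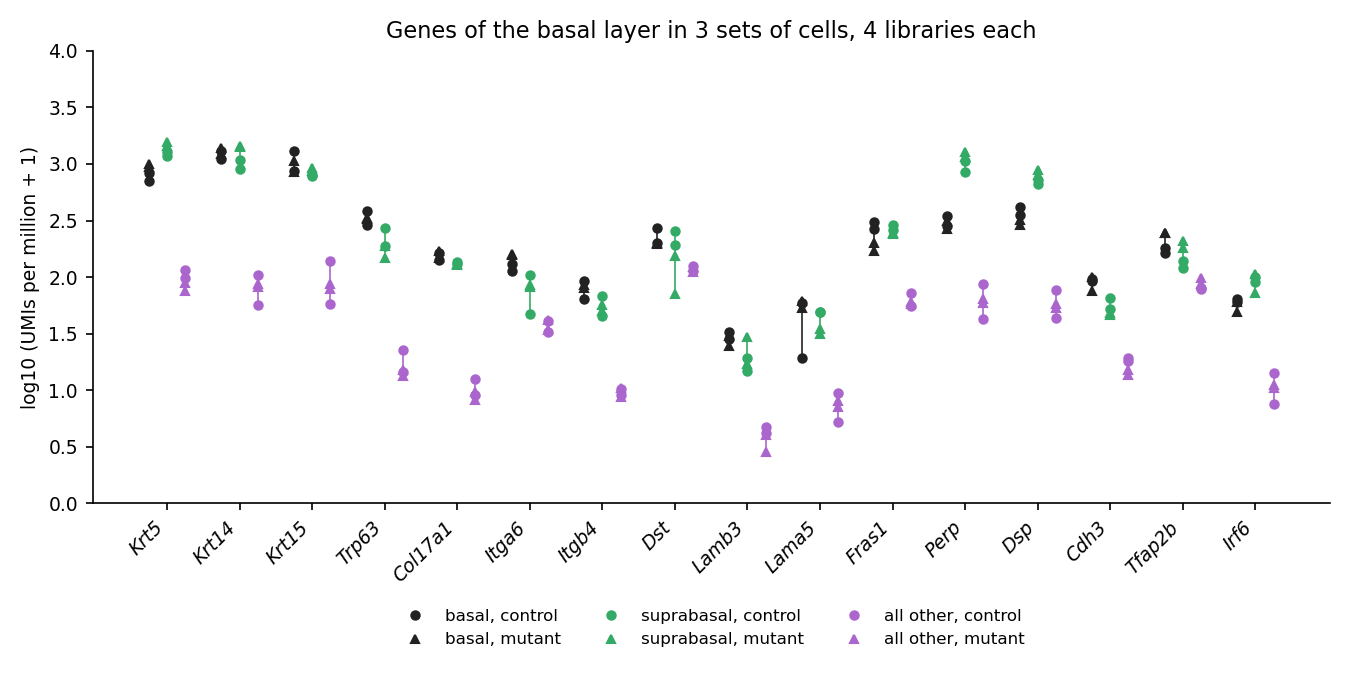
Level of 16 genes on the vertical axis, as log10 of CPM plus 1, in basal, suprabasal and all other retained cells; circles are control libraries, triangles mutant libraries and the line spans the 4 libraries. Krt5, Krt14, Krt15 and Trp63 chose the basal cells; Itga6 lies higher in basal than in suprabasal cells, and Perp and Dsp lie lower.

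Markers of most other cell types were low. Summed over 8 genes of mesenchyme, members held 749, 281, 635 and 513 CPM against 5532 to 6933 CPM in other cells. Endothelial, macrophage, erythroid and muscle lists summed to at most 14.6 CPM in any library. Melanocyte genes summed to 15.1, 18.1, 14.9 and 30.3 CPM against 39.3, 67.7, 36.4 and 30.2 CPM in other cells, so mutant 2 showed no difference. The 4 genes of oral epithelium, Pitx1, Foxe1, Krt4 and Krt13, were higher in members than in other cells of every library. They summed to 93.3, 72.6, 96.2 and 56.0 CPM against 30.5, 12.3, 23.2 and 27.6 CPM. The 4 Merkel cell genes summed to 171, 27.2, 113 and 74.0 CPM in members, above the 18.3 to 43.6 CPM of other cells. Of these, Atoh1 and Krt20 had no UMI, Isl1 had one in 29.9%, 4.35%, 23.2% and 13.3% of members, and Sox2 is also a gene of the nasal lining. Glial markers summed to 47.4, 54.4, 33.6 and 35.9 CPM, with Sox10 itself at 0, 0, 0 and 3.36 CPM. Sox10 transcripts were therefore at or near the limit of detection, although past expression cannot be read from this.

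The members were not of a single kind. Sox2, Pax6 and Otx2, transcription factors of the nasal placode and cavity lining, had at least 2 UMIs together in 31 of 97, 1 of 23, 16 of 95 and 12 of 105 members, or 32.0%, 4.35%, 16.8% and 11.4%. After each member was thinned to 3000 UMIs the shares were 7.29%, 0%, 6.38% and 6.12%, while all other retained cells gave 1.49% to 2.94%. The 0 of 23 allows a share of up to 13.0% by 3 counts, and its exact interval reaches 14.8%. Control and mutant libraries overlapped (difference of means 2.61 points, exact two-sided permutation p = 1; 2 against 2 libraries cannot go below 0.33), and the difference turned to -4.02 points without thinning and to -1.04 without control 2. These lining-type members also held Krt8, a keratin of simple epithelia, at 97.3, 118 and 189 CPM in control 1, mutant 1 and mutant 2, against 24.1, 4.35 and 10.1 CPM in members without a UMI of the 3 genes. Mecom, Gstm1, Cbr2 and Sfrp1 were likewise higher there in these 3 libraries. Cxcl14 ran the other way, at 220, 285 and 704 CPM against 2066, 3441 and 3168 CPM, as did Tfap2b, a factor of surface ectoderm, at 67.9, 39.5 and 7.25 against 191, 329 and 312 CPM. Control 2 had 1 such cell and is left out of this description, whose genes were ranked on the same cells.

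The share of members among retained cells was 2.38% (exact 95% binomial interval 1.93 to 2.90), 0.930% (0.590 to 1.39), 3.17% (2.57 to 3.86) and 2.50% (2.05 to 3.02). Both mutant libraries lay above both controls, with means of 2.84% and 1.65% (exact two-sided permutation p = 0.33, the smallest this design allows). Mutant 2 and control 1 had overlapping intervals, and most of the difference came from control 2. Without control 2 it was 0.46 points in place of 1.18. With the rule applied after thinning to 3000 UMIs the shares were 1.71%, 0.782%, 1.83% and 1.81%. With stricter members they were 1.40%, 0.647%, 1.87% and 1.33%, so that the groups overlapped (difference 0.58 points, exact permutation p = 0.67). Intervals cover counting error only.

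Cycling cells, those with at least 3 UMIs over 20 cell-cycle genes after thinning to 3000 UMIs, were 63.5%, 30.4%, 43.6% and 51.0% of members. The mutant libraries lay between the 2 controls (difference of means 0.33 points, exact permutation p = 1). Other retained cells gave 30.0% to 33.2%, below the members of 3 of the 4 libraries. Suprabasal keratinocytes gave 45.6%, 31.25%, 28.8% and 42.4%. Without control 2 the difference was -16.2 points, and without control 1 it was 16.9. Unthinned shares were 78.4%, 60.9%, 70.5% and 65.7%. None of the 20 genes passed the test between groups, and Top2a, the topoisomerase of dividing cells, was at 254, 145, 164 and 204 CPM.

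**Figure D2:**
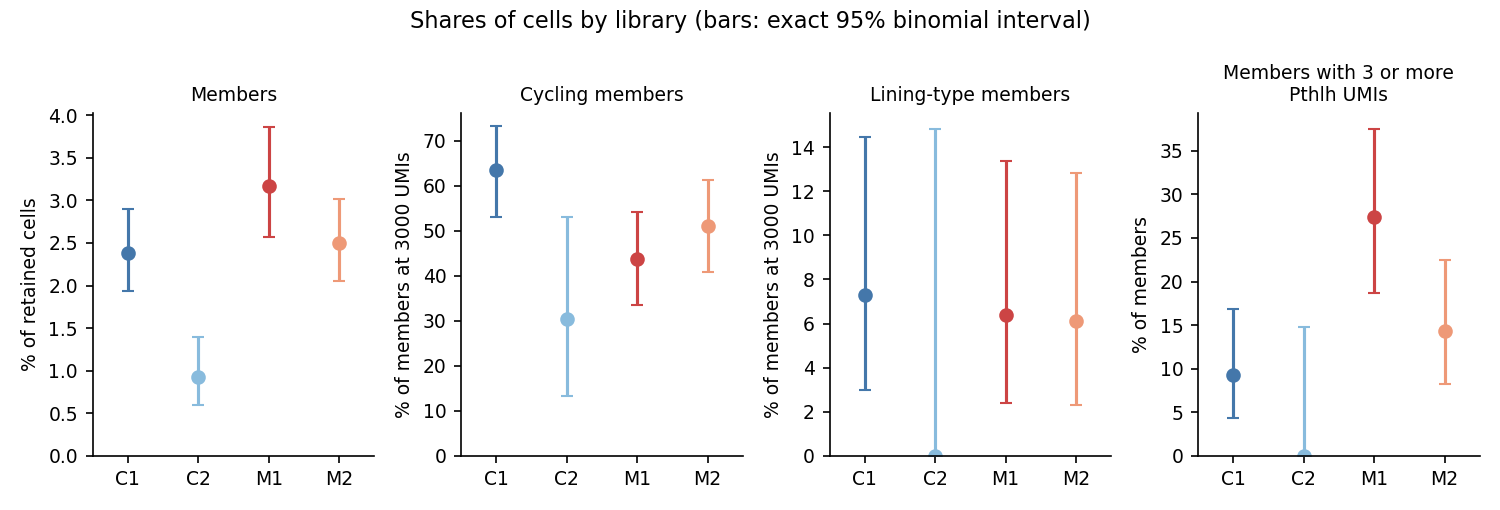
Percent of cells in control (C1, C2) and mutant (M1, M2) libraries with exact 95% binomial intervals: members among retained cells, cycling and lining-type members after thinning to 3000 UMIs, and members with at least 3 Pthlh UMIs. The first share was 0.930% in control 2 and 2.38% to 3.17% in the others.

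Between mutant and control basal keratinocytes, 8 of 9367 tested genes passed an adjusted p of 0.05 in edgeR's quasi-likelihood test with Benjamini-Hochberg adjustment, or 0.0854%, and all 8 were higher in mutants. They were the heat shock genes Hspa1a and Hspa1b, the signal Pthlh, the chemokine Cxcl14, the regulators Elmo1 and Zfpm2, and Ccdc91 and Eif3l. By GENCODE M21 on GRCm38 they lie at chr17:34969190-34972156 (Hspa1a) and chr17:34956436-34959238 (Hspa1b), chr6:147252101-147264183 (Pthlh) and chr6:147475828-147632612 (Ccdc91), chr13:56288643-56296551 (Cxcl14) and chr13:20090596-20608353 (Elmo1), and chr15:40655035-41104592 (Zfpm2) and chr15:79075179-79094405 (Eif3l). At an unadjusted p under 0.05 there were 416 genes. The median log2 change over all genes was -0.01. Called genes in the fits that left out a library numbered 135 without control 1, 110 without control 2, 29 without mutant 1 and 16 without mutant 2, and 7, 8, 7 and 6 of the 8 were among them. Ccdc91 was lost without control 1 and without mutant 1, and Eif3l and Cxcl14 without mutant 2.

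**Figure D3:**
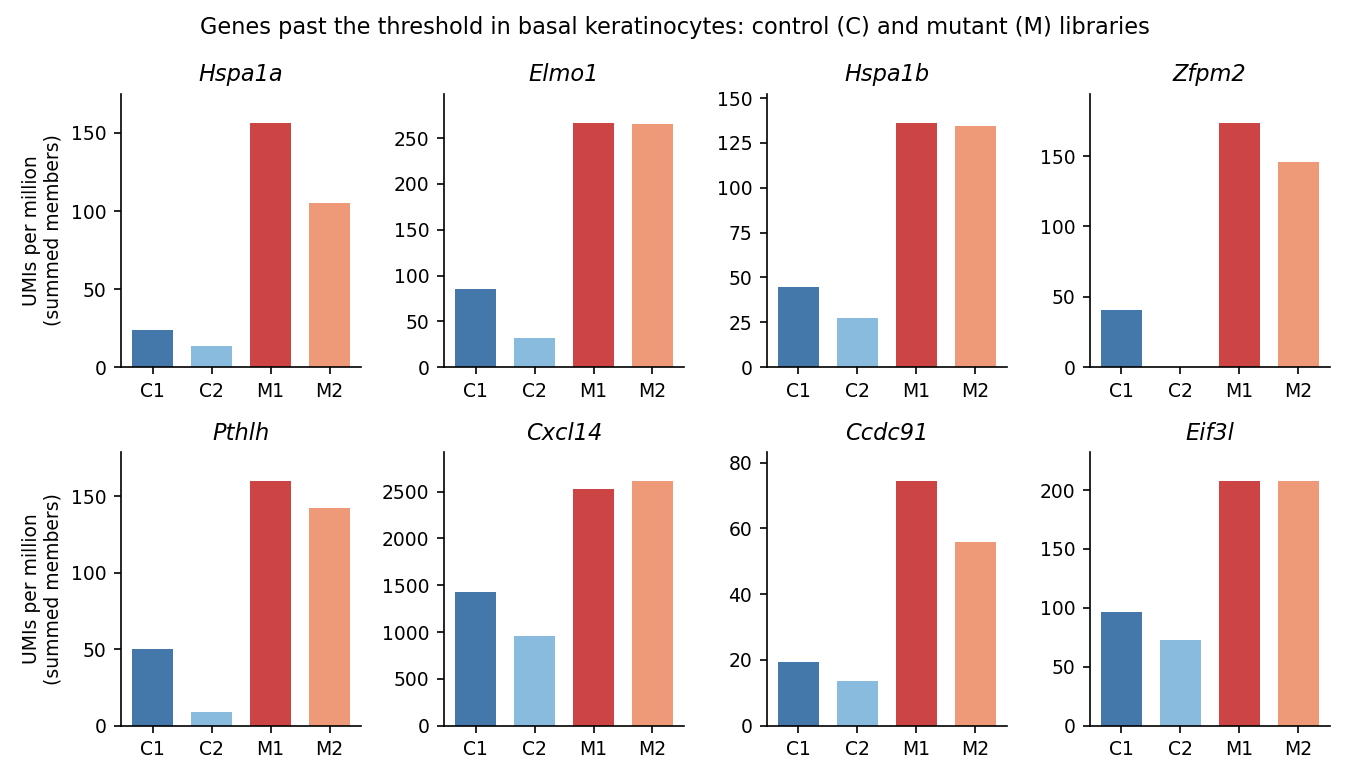
CPM over the members' summed counts for the 8 genes past the threshold; 1 bar per library, control 1 and 2 (C1, C2) and mutant 1 and 2 (M1, M2). Both mutant bars stand above both control bars in each panel; Zfpm2 had no UMI in control 2.

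The targeted genes were measured first as a check of the labels. Yap1 was at 111, 109, 94.7 and 104 CPM (log2 change -0.16 ± 0.20 SE, edgeR adjusted p = 1), and Wwtr1 at 48.1, 31.8, 34.4 and 41.5 CPM (-0.24 ± 0.28, adjusted p = 1). Neither passed the test in members. The assay counts the 3-prime end, so a transcript that lacks the floxed exons can still be counted, and these levels do not show whether the alleles were recombined.

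Transcripts of the heat shock chaperones Hspa1a and Hspa1b rose. Hspa1a was at 23.7, 13.6, 156 and 105 CPM, a log2 change of 2.59 ± 0.30 (SE, edgeR adjusted p = 0.0039). Hspa1b, its near-identical neighbour 9952 bases away on chromosome 17, was at 44.5, 27.2, 136 and 134 CPM, a log2 change of 1.72 ± 0.23 (edgeR adjusted p = 0.0086). Mutant and control libraries were well apart for both. Reads that fit both genes may be split unevenly, and their sum was 68.2, 40.8, 293 and 240 CPM. Cells with an Hspa1a UMI numbered 19, 3, 37 and 28, and the most in a single cell was 6, 1, 36 and 17, so the counts were spread over many members. Of the 12 listed heat shock genes these 2 passed, and 4 had both mutants above both controls, against 18.1% of all tested genes. The other 8 overlapped between groups, and the list had a median log2 change of 0.08. Dnajb1 had a UMI in 67.0%, 65.2%, 49.5% and 51.4% of members, and Bag3 in 24.7%, 17.4%, 21.1% and 19.0%. Hsph1, named after its values were seen, was at 23.7, 18.1, 55.6 and 45.9 CPM (1.18 ± 0.30, edgeR adjusted p = 0.43). The abundant constitutive chaperones Hsp90ab1, at 2354, 2245, 2175 and 2819 CPM, and Hspa8, at 905, 993, 868 and 1010 CPM, overlapped between groups. None of the 12 listed immediate early genes passed. Whether dissociation had a part in the heat shock values was not tested.

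In suprabasal keratinocytes both genes rose, Hspa1a by 3.00 ± 0.33 and Hspa1b by 2.21 ± 0.23 on the log2 scale (edgeR adjusted p = 0.0091 for each), and their summed level was 128, 62.6, 644 and 593 CPM. In all other cells the sum was 67.7, 23.5, 145 and 151 CPM, with a log2 change of Hspa1a of 1.74 ± 0.50 that did not pass (edgeR adjusted p = 0.89). The change in Hspa1a was 1.28 ± 0.33 larger in members than in other cells (edgeR interaction, adjusted p = 0.042). That call was lost in 5 of 7 alternatives. The difference was 0.39 without control 1, 0.87 without mutant 1 and 1.54 without mutant 2. The test against suprabasal cells did not pass (-0.26 ± 0.42, edgeR interaction, adjusted p = 1).

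The promoters of both genes are shown because they moved together and are almost one sequence. The 250 bases before the start, from RefSeq on GRCm38.p6, lie on the minus strand at chr17:34972157-34972406 for Hspa1a and chr17:34959239-34959488 for Hspa1b, and 247 of 250 bases are the same. Capitals mark a heat shock element, searched as GAANNTTC or TTCNNGAA, which read alike on both strands. It begins 104 bases before the start in each.
Hspa1a: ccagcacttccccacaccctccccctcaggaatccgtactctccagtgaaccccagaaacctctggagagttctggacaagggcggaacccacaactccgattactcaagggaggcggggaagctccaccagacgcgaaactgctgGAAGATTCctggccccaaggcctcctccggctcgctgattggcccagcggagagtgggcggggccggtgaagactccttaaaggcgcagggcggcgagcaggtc
Hspa1b: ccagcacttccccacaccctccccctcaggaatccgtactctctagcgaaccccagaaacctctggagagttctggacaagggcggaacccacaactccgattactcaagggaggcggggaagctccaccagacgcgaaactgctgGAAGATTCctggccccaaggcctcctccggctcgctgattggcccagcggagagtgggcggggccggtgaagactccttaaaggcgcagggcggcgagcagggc
At least 1 such match, in windows of 300 bases around the start, was present for 16.97% of 27025 genes, for 8 of the 9 listed heat shock genes with an entry and for 3 of the 7 called genes with one, the third being Pthlh. A match describes letters only.

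Pthlh and 4 further genes rose in basal keratinocytes. Pthlh, parathyroid hormone-like hormone, a signal that epithelium sends to mesenchyme, was at 50.2, 9.07, 160 and 142 CPM (log2 change 1.85 ± 0.29, edgeR adjusted p = 0.030). Elmo1, which helps Dock proteins activate the GTPase Rac, was at 85.4, 31.8, 267 and 266 CPM (1.88 ± 0.24, edgeR adjusted p = 0.0083). Zfpm2, a cofactor of GATA transcription factors, was at 40.9, 0, 174 and 146 CPM (2.28 ± 0.35, edgeR adjusted p = 0.030). Mutant libraries lay apart from controls for all 3, with control 2 lowest. With DESeq2 in place of edgeR, Zfpm2 had a log2 change of 2.93 ± 1.94 (SE, Wald test, unadjusted p = 0.13) and did not pass. Cxcl14, a chemokine made by epithelium, was abundant at 1427, 957, 2525 and 2609 CPM and rose by 1.06 ± 0.17 on the log2 scale (edgeR adjusted p = 0.030). Ccdc91, a Golgi trafficking protein whose gene lies 211645 bases from Pthlh on chromosome 6, was at 19.4, 13.6, 74.3 and 56.0 CPM (1.84 ± 0.30, edgeR adjusted p = 0.031). Its lowest libraries rest on 27 and 3 UMIs. Without control 1 the log2 change was 3.95 for Pthlh and 2.97 for Elmo1, and that of Zfpm2 has no meaning as a size, since control 2 holds none of 220478 UMIs.

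Changes of these 5 genes were smaller in value in the layer above. Suprabasal log2 changes were 0.44 ± 0.35 for Pthlh, 0.13 ± 0.35 for Elmo1, 0.74 ± 0.34 for Zfpm2, 0.00 ± 0.21 for Cxcl14 and 0.22 ± 0.39 for Ccdc91, none of which passed. All 5 passed the test that the change in members differs from that in all other cells, by 1.66 ± 0.31, 1.77 ± 0.24, 2.50 ± 0.27, 1.19 ± 0.17 and 1.86 ± 0.38 in the same order (edgeR interaction, adjusted p of 0.00026, 9.2e-10, 9.9e-16, 2.2e-09 and 0.00096). Zfpm2 and Elmo1 passed it with each library left out, Elmo1 with 2.72 without control 1. Cxcl14 had 1.95 without control 1 and 0.55 without control 2, and was lost without mutant 1 (1.27, adjusted p = 0.060) and mutant 2 (1.19, adjusted p = 0.14). Pthlh, at 2.88 without control 1, was lost without control 1, mutant 1 and mutant 2 (adjusted p of 0.055, 0.11 and 0.25), and Ccdc91 without the same libraries (0.24, 0.84 and 0.15). None passed against suprabasal cells (lowest edgeR adjusted p = 0.35, for Cxcl14), so a difference between the 2 layers was not shown for them.

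**Figure D4:**
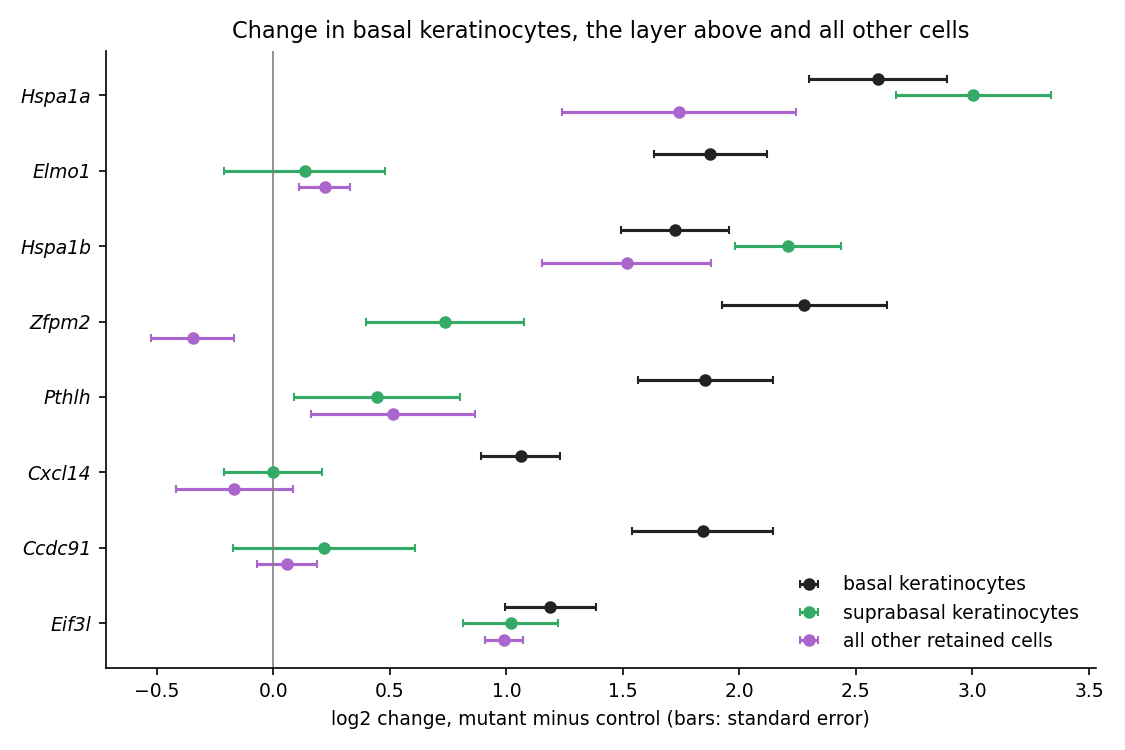
Log2 change, mutant minus control, with its standard error on the horizontal axis for the 8 genes past the threshold, in basal keratinocytes, suprabasal keratinocytes and all other retained cells. Hspa1a, Hspa1b and Eif3l have positive values in all 3 sets of cells; Elmo1 and Cxcl14 lie near 0 outside the basal cells.

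A sum over members cannot tell more positive cells from more RNA in each. Cells were therefore counted at a UMI limit, although such a count also rises with more RNA in each. Members with at least 3 Pthlh UMIs numbered 9 of 97, 0 of 23, 26 of 95 and 15 of 105, or 9.28%, 0%, 27.4% and 14.3%. The 0 of 23 allows a share of up to 13.0% by 3 counts and 14.8% by its exact interval, and the intervals of control 1 (4.33 to 16.9) and mutant 2 (8.22 to 22.5) overlapped. Other retained cells gave 0.163% to 1.28% at median depths of 5244 to 8480 UMIs. Suprabasal keratinocytes, which are among these, gave 6.17%, 3.125%, 3.64% and 5.88%, so such cells were not confined to the basal layer. After thinning to 3000 UMIs, at least 1 Pthlh UMI was present in 11.5%, 4.35%, 23.4% and 19.4% of members. For Elmo1, members with at least 3 UMIs numbered 12, 1, 38 and 21, and for Zfpm2 they numbered 7, 0, 20 and 14. Other retained cells gave 5.14% to 9.45% for Elmo1 and 6.04% to 9.87% for Zfpm2. Suprabasal keratinocytes gave 3.64% to 10.3% for Elmo1 and 5.45% to 8.64% for Zfpm2. Both mutants were above these ranges, while the controls stood at 12.4% and 4.35% for Elmo1 and at 7.22% and 0% for Zfpm2. Intervals of control 1 and mutant 2 overlapped for Elmo1 (6.56 to 20.6 and 12.8 to 28.9) and for Zfpm2 (2.95 to 14.3 and 7.49 to 21.4). Members past these limits were thus more frequent in both mutants than in both controls for all 3 genes, which were chosen for their change. Whether more cells or more RNA in each lay behind this was not tested. The Zfpm2 UMIs numbered 57, 0, 222 and 130, from 14, 0, 23 and 16 members.

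Members with Pthlh shared other genes. Cells with at least 3 Pthlh UMIs were set beside those with none in control 1, mutant 1 and mutant 2, with genes ranked by their lowest ratio over the 3 libraries on the same cells, as a description. The first was Tgfb2, a growth factor, at 517, 563 and 589 CPM against 37.5, 63.1 and 69.2 CPM. Next came Plcl1, Prdm1, Elmo1, Lhx2 and Nfatc1. Lhx2 and Nfatc1, transcription factors known from hair follicle progenitors, were at 146, 230 and 198 against 5.48, 1.31 and 21.9 CPM and at 97.2, 144 and 205 against 6.40, 5.26 and 28.7 CPM. Trps1, a GATA-type repressor known for its role in hair and nose, was twelfth, at 1234, 1508 and 1230 against 294, 312 and 425 CPM. Control 1, with 9 such cells, was among the libraries used for the ranking, so the presence of the set there was fixed by that choice. Zfpm2 was at 85.1, 518 and 474 CPM in Pthlh cells against 28.3, 18.4 and 32.1 CPM, and Cxcl14 at 2686, 5512 and 4682 against 1207, 1213 and 1588 CPM. Hspa1a ran lower in Pthlh cells, at 6.08, 49.9 and 57.6 against 23.7, 237 and 130 CPM. Within members that lacked Pthlh, Elmo1 was at 34.7, 94.6 and 92.8 CPM.

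Some genes ranked in Pthlh cells had both mutants above both controls without passing, among them Prdm1, the repressor Blimp1, at 26.6, 36.3, 79.0 and 80.7 CPM (log2 change 1.49 ± 0.26, edgeR adjusted p = 0.056), Tgfb2 at 105, 99.8, 212 and 213 CPM (1.03 ± 0.19, edgeR adjusted p = 0.063), and Lhx2, named after its values were seen, at 33.7, 9.07, 73.6 and 81.8 CPM (1.41 ± 0.29, edgeR adjusted p = 0.16). Pthlh was chosen for its rise, and members with at least 3 Pthlh UMIs were more frequent in both mutants. Higher sums of genes ranked in those cells are therefore not separate evidence of a change. Fhod3, a formin that builds actin filaments, was at 13.6, 0, 63.4 and 47.1 CPM (2.29 ± 0.41, edgeR adjusted p = 0.061), with mutants above controls, and was not among the genes ranked in Pthlh cells. Of 11 listed appendage genes 8 were tested, none passed, 4 had mutants higher (against 18.1% of all tested genes) and none had mutants lower (against 14.9%), with a median log2 change of 0.21. Sostdc1, a Wnt and BMP antagonist of placodes, was at 397, 327, 412 and 356 CPM, and Shh, the placode signal, at 9.33, 0, 7.04 and 11.2 CPM.

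The makeup of the members differed between libraries, and its part in these results was not tested. Elmo1, Pthlh and Cxcl14 were low in lining-type members. Such members were 32.0%, 4.35%, 16.8% and 11.4% before thinning and 7.29%, 0%, 6.38% and 6.12% after it. Among members without a UMI of Sox2, Pax6 or Otx2 (55, 19, 72 and 85 cells) Cxcl14 was at 2066, 1169, 3441 and 3168 CPM, Elmo1 at 134, 38.8, 362 and 325 CPM, Pthlh at 67.1, 11.1, 205 and 170 CPM and Zfpm2 at 29.1, 0, 235 and 174 CPM. In these members both controls were below both mutants for each of these genes. In that fit 19 genes passed, 15 of them higher in mutants, and 7 of the 8 were among them; Ccdc91 had a log2 change of 1.79 (edgeR adjusted p = 0.055). These 3 genes are a shorter list than was planned, and fewer of the 8 passed with the planned list. A longer list of 6 lining genes, with Cbr2, Bpifa1 and Foxa1 added, left 43, 15, 59 and 72 members. There 8 genes passed and 4 of the first 8 were lost, Pthlh with a log2 change of 1.70 (edgeR adjusted p = 0.16), Cxcl14 with 0.95 (0.076), Ccdc91 with 1.30 (0.42) and Eif3l with 1.46 (0.067). In members without a UMI of Sox2, Pax6 or Otx2 that held a Tfap2b UMI (37, 10, 57 and 58 cells) 13 genes passed and the same 4 did not, with log2 changes of 1.96 for Pthlh, 0.79 for Cxcl14, 2.17 for Ccdc91 and 1.29 for Eif3l (edgeR adjusted p from 0.055 to 0.13). These fits hold fewer cells. All of these choices were made after seeing the data.

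Eif3l, a subunit of translation initiation factor 3, was at 96.9, 72.6, 207 and 207 CPM in members (log2 change 1.19 ± 0.20, edgeR adjusted p = 0.031). It lies near Sox10 on chromosome 15. Polr2f, an RNA polymerase subunit gene 46604 bases from Eif3l, was at 235, 218, 486 and 416 CPM (0.96 ± 0.17, edgeR adjusted p = 0.061). Both mutants were above both controls for Eif3l and Polr2f. Micall1, which lies between them, and Ankrd54, 12286 bases from Eif3l, overlapped between groups (log2 change 0.67 and -0.27). Values were 1.02 ± 0.20 for Eif3l and 1.09 ± 0.16 for Polr2f in suprabasal cells and 0.99 ± 0.08 and 0.85 ± 0.08 in all other cells, and neither interaction passed (edgeR adjusted p = 1 for each). Of 9 listed neighbours of Sox10, 5 were tested. Of these 1 passed (against 0.0854% of all tested genes) and 2 had mutants higher (against 18.1%). The Cre transgene is driven by Sox10, and whether it holds copies of these genes was not tested.

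Adhesion and identity genes did not pass the test. All 13 hemidesmosome genes were tested, with a median log2 change of 0.03, and Col17a1 had 0.01 ± 0.19 (edgeR adjusted p = 1). Of 16 basement membrane genes 13 were tested, with a median of -0.15, 1 with mutants higher and 4 with mutants lower, where 14.9% of all tested genes had mutants lower. Fras1, a matrix protein that anchors epidermis to dermis, was at 268, 308, 167 and 199 CPM (-0.65 ± 0.19, edgeR adjusted p = 0.61). Of 14 tested junction genes 5 had mutants lower, among them Dsp (-0.38 ± 0.17, edgeR adjusted p = 1), with a median of -0.14. Ctnnb1, beta-catenin, was at 401, 381, 418 and 399 CPM. Among 12 tested epidermal transcription factors 5 had mutants higher (against 18.1% of all tested genes) and 3 lower (against 14.9%). Tfap2b was at 163, 181, 245 and 247 CPM (0.53 ± 0.18, edgeR adjusted p = 0.93) and Klf5, a factor of epithelial proliferation, at 160, 200, 114 and 155 CPM.

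No Hippo pathway gene passed. Of 17 listed 16 were tested, none had mutants higher (against 18.1% of all tested genes), 6 had mutants lower (against 14.9%), and the median log2 change was -0.26, against -0.01 over all genes. Tead1, a DNA-binding partner of YAP, was at 285, 209, 247 and 220 CPM. Of 13 known YAP targets 11 were tested and none passed, with a median of -0.25, 3 with mutants lower and 1, Tgfb2, higher. Ptpn14, both a target and an inhibitor of YAP, was at 147, 145, 98.6 and 89.7 CPM (-0.64 ± 0.19, edgeR adjusted p = 0.69). Ccn1, a secreted matrix protein and target, was at 261, 322, 226 and 286 CPM, and Ankrd1 had no UMI.

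In the Notch pathway, which drives basal cells toward the suprabasal fate, 8 of 11 genes were tested, 4 had mutants lower (against 14.9% of all tested genes) and none higher (against 18.1%), with a median of -0.31 and no call. Hes1, the repressor that Notch induces, was at 480, 517, 295 and 236 CPM (log2 change -0.92 ± 0.18, edgeR adjusted p = 0.095), so that both mutants were lower. It passed in 7 of 15 alternatives, among them members with under 5 collagen UMIs (edgeR adjusted p = 0.023) and the fit without control 2 (2.1e-05), and had an adjusted p of 0.82 without mutant 2. In suprabasal cells it was at 534, 808, 597 and 572 CPM (-0.22 ± 0.20), and the difference between the layers did not pass (edgeR interaction, adjusted p = 0.64). Notch1, the receptor, was at 86.8, 118, 73.6 and 77.3 CPM and its ligand Jag1 at 58.1, 72.6, 43.8 and 43.7 CPM.

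Of 16 tested genes of other growth factor pathways none passed, 4 had mutants lower (against 14.9% of all tested genes) and 2 higher (against 18.1%), with a median of -0.23. Id1 and Id3, targets of BMP, were at 291, 444, 171 and 250 CPM (-0.77 ± 0.24, edgeR adjusted p = 0.78) and at 589, 830, 459 and 534 CPM (-0.52 ± 0.20, edgeR adjusted p = 1). Without members holding a UMI of the 6 lining genes the change of Id1 was 0.0073. Fgfr2, the receptor for mesenchymal FGFs, was at 414, 544, 431 and 418 CPM, and Egfr at 163, 122, 159 and 185 CPM. Of 12 tested Wnt genes none passed and 3 had mutants higher, with a median of 0.02. Wnt4 was at 199, 195, 158 and 245 CPM and Wnt6 at 178, 268, 182 and 194 CPM. The periderm list had 7 of 11 tested, none called, 5 with mutants lower and a median of -0.45. These were Krt8, Krt18, Krt19, Cldn4 and Cldn6, and all 5 were also higher in lining-type members than in members without a UMI of Sox2, Pax6 or Otx2 in control 1, mutant 1 and mutant 2. Krt18, the partner of Krt8, was at 174, 167 and 167 against 21.5, 17.4 and 33.1 CPM there. The part of such members in these values was not tested. Krt17, a keratin of follicles and early epidermis, was at 521, 390, 902 and 629 CPM (0.69 ± 0.19, edgeR adjusted p = 0.55).

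**Figure D5:**
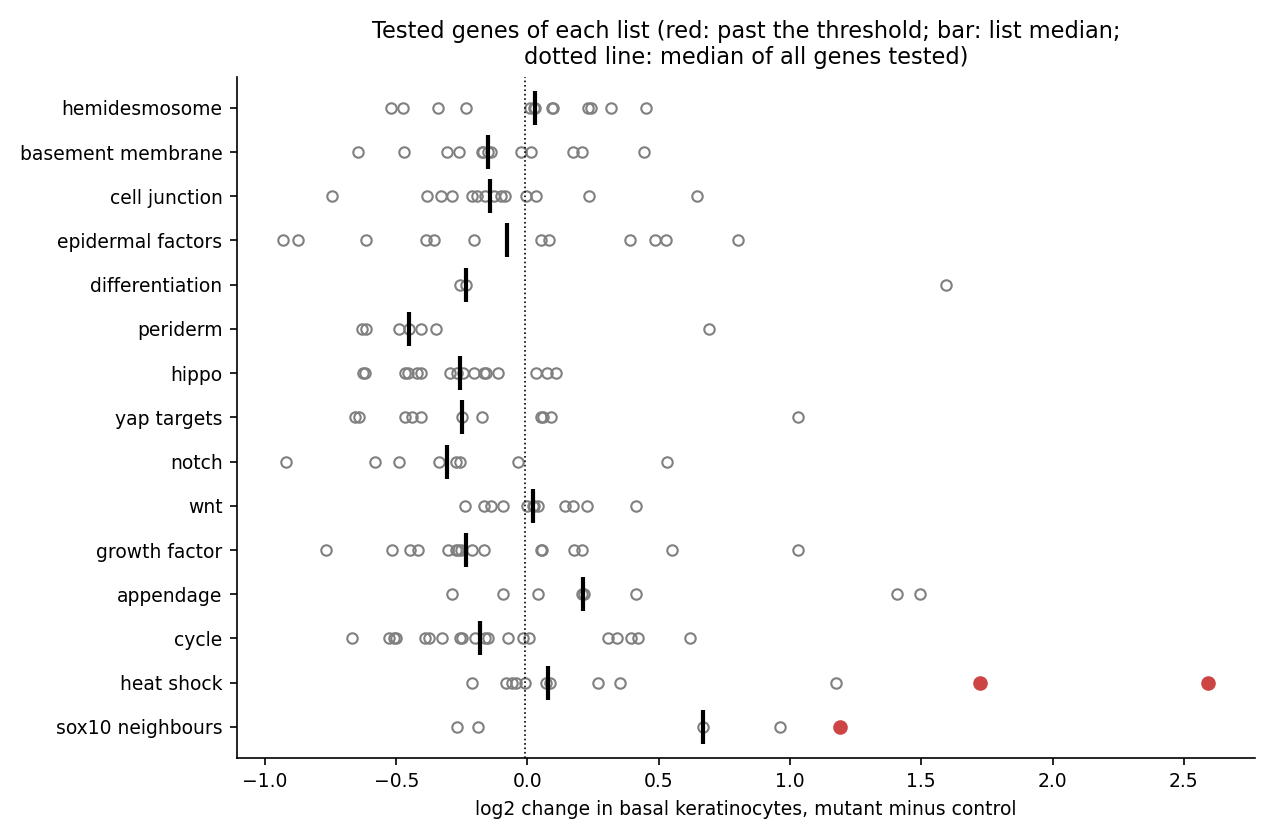
Log2 change in basal keratinocytes, mutant minus control, of the tested genes in 15 lists; filled red circles passed an adjusted p of 0.05, the bar is the list's median and the dotted line the median of all tested genes (-0.01). Called genes are Hspa1a and Hspa1b in the heat shock list and Eif3l among the neighbours of Sox10.

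Against suprabasal keratinocytes the mutant change differed for 1 of 9205 genes, or 0.0109% (edgeR interaction, with 394 at an unadjusted p under 0.05). This was Nkain3, which codes for a protein that binds the sodium pump, at 248, 40.8, 214 and 76.2 CPM in basal and 190, 60.2, 32.0 and 10.8 CPM in suprabasal cells (log2 difference 2.53 ± 0.36, adjusted p = 0.036). In basal cells the groups overlapped, and the separation lay in the suprabasal cells. The adjusted p was 0.29 without control 1 and 0.18 without control 2. Next in order were Slc8a1, Nrxn3 and Plcb1, each with an adjusted p of 0.115, and Col2a1 at 0.35. Of 114 Nrxn3 UMIs in mutant 1, 109 came from a single cell.

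Against all other cells 43 of 16478 genes passed, or 0.261%, with 22 changes more positive in members and 21 more negative. Beside the genes above, Nfatc1 was at 23.7, 9.07, 50.1 and 71.7 CPM in members against 17.4 to 28.9 CPM in other cells (log2 difference 1.79 ± 0.36, edgeR adjusted p = 0.00096), with 3.29 without control 1 and an adjusted p of 0.16 without mutant 1 and 0.27 without mutant 2. Fhod3 differed by 2.32 ± 0.40 (edgeR adjusted p = 2.96e-05), and by 2.11 with an adjusted p of 0.17 without mutant 1. Some calls rested on a few cells. Col2a1, the main collagen of cartilage, had 10, 1, 5 and 130 UMIs in members, and 66 of the 130 came from 1 cell. Its log2 difference of 3.33 ± 0.42 (edgeR adjusted p = 1.8e-11) was 0.49 with an adjusted p of 1 without mutant 2, and its adjusted p was 0.10 without control 1. The cartilage genes Mia, Col9a1, Col11a2 and Cytl1 had 19, 24, 17 and 22 UMIs in mutant 2, in 3 to 6 cells each, and at most 1 UMI in any other library. The count itself was 117 without control 1, 130 without control 2, 16 without mutant 1 and 9 without mutant 2.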

How the data were processed

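The deposited matrices are raw counts of UMIs for each gene in each barcode. Cell Ranger made them, as version 4 by the submitters' processing notes and as 8.0.1 per the file headers. The notes also name Seurat 4.3.0 and mm10. Per the labels' protocols, noses were dissociated with papain, frozen, thawed and run with the 10x 3-prime chemistry. A further sample that the labels mention was not analysed here.

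The members and gene lists were chosen with earlier results of these data known. Members' counts were summed per library and tested with edgeR 4.0.16 under R 4.3.3 (quasi-likelihood, TMM, filterByExpr, Benjamini-Hochberg over all tested genes, threshold 0.05), without covariates. Differences between sets of cells were tested as an interaction with the library as a block. A standard error is the size of the log2 change over the root of F. The fold changes contain a small prior count, so they are no bounds for genes near 0. The fits were also run on simulated counts with the same spread for every gene. Those counts hold no clumping of UMIs in a few cells, so that run does not test the calls made here. Shares carry exact 95% binomial intervals and were compared by exact permutation over libraries. Positions come from GENCODE M21 (GRCm38), where identifiers of 32158 of 32285 features matched.

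Named genes were those of the rule and Col17a1, called genes of at least 20 CPM with groups apart and, as fewer than 10 passed, the 10 such genes of smallest p, the 5 leading genes of each interaction, and up to 4 most abundant and all called genes of each list. Other genes were named after their values were seen. Doublets were kept. Scrublet in scanpy 1.11.5 marked 0, 0, 1 and 1 cells by its own limit and so had not worked, and removal of the highest scores at 0.8% per 1000 barcodes, 156, 60, 98 and 160 cells with 8, 0, 5 and 5 members, was an alternative. Others were DESeq2 1.42.0, RLE factors, testing without the low-count filter, a replicate block, other memberships, thinning to 3000 UMIs and each library left out. Some listed genes are not reported here, so the lining list is shorter than planned and the lists are counted without them; with the planned lining list fewer of the 8 genes passed than with the 3 genes used.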

Additional observations from a re-analysis of the deposited data

Results flagged for a closer look

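The change between mutant and control libraries differed between basal and suprabasal keratinocytes for 1 gene by an interaction test in edgeR, Nkain3, with a log2 difference of 2.53. Against all other retained cells it differed for 43 genes. The 5 leading ones had log2 differences of 2.50 for Zfpm2, 3.33 for Col2a1, 1.77 for Elmo1, 1.19 for Cxcl14 and 2.32 for Fhod3. In basal keratinocytes of mutant 2, 66 of 130 Col2a1 UMIs came from 1 cell. Zfpm2 UMIs came from 14, 0, 23 and 16 members.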

How the results depend on the processing

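Control 2 holds 23 members and 220478 UMIs, so a gene of low level there rests on few counts and shares in it have wide intervals. The 8 called genes kept a positive change under all alternatives run. Called genes numbered 3 with DESeq2, 56 without a filter on low counts (37 higher), 26 with the replicate block (21 higher), 2 in stricter members, 19 in members with no UMI of Sox2, Pax6 or Otx2, 8 in members with none of 6 lining genes, 2 in members thinned to 3000 UMIs and 13 in members with a Tfap2b UMI and none of Sox2, Pax6 or Otx2, and 16 to 135 with each library left out. Of the 8, the numbers shared were 3, 8, 8, 2, 7, 4, 2 and 4 in the order of the named settings. The 3 kept with DESeq2 were Hspa1a, Elmo1 and Cxcl14, and Zfpm2, Pthlh, Ccdc91, Hspa1b and Eif3l were lost. Same-numbered libraries did not deviate together (correlation 0.0056), so the block rests on a shared number only. With 1 library left out, the lone library of its group is assumed to vary like the other group. Against suprabasal cells the calls numbered 35 without a filter and 3 with doublets removed, and 0 to 15 with each library left out, all 0 in the fits without a control (edgeR, with 672 and 543 genes at an unadjusted p under 0.05). Against all other cells they numbered 9 to 130 with each library left out. Differences in the share of members stayed positive, at 0.46 to 1.91 points with each library left out. Differences in the share of cycling members were 3.21 at 2 UMIs or more, -1.49 without thinning, -3.22 at 5 UMIs or more, -0.39 with doublets removed, and -16.2 to 16.9 with each library left out. Differences in the share of lining-type members were -4.02 without thinning, -5.93 at 1 UMI or more, -0.51 at 4 UMIs or more, and -1.04 to 6.25 with each library left out. Of the genes not called, Hes1 and Fhod3 passed in 7 of 15 alternatives each, Lhx2 and Polr2f in 5, Tgfb2 in 4, Prdm1 and Krt17 in 3, Id1 in 2, and Fras1, Id3 and Tfap2b in 1. Signs turned for Id1 (0.0073 with none of 6 lining genes, 0.057 with a Tfap2b UMI), Yap1 (0.11 thinned), Wwtr1 (0.48 thinned, 0.036 with none of 6 lining genes, -0.34 to 0.15 with each library left out) and Col17a1 (-0.27 in stricter members, -0.16 with none of 6 lining genes, -0.26 with a Tfap2b UMI, and -0.084 to 0.10 with each library left out).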
